A study of Mus musculus with 12 samples.

Results

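The 27 genes described here encode enzymes of cholesterol synthesis, the proteins that sense sterols and control the transcription factor SREBP2, and carriers that move sterols inside the cell. They were chosen by name, as every row of both deposited tables whose gene name was on the list, and all 27 were found among the 55536 genes listed there. By role they comprise 8 genes of the steps up to the prenyl diphosphates, 11 genes of the steps on to cholesterol, 5 genes of sterol sensing and 3 genes of sterol transport.

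Liver RNA was sequenced in 12 samples, 4 from each of 3 groups of mice. The shG0s2 and shRgs16 groups received adenovirus carrying a short hairpin RNA against G0s2, an inhibitor of the lipase ATGL, or against Rgs16, a regulator of G protein signalling, and the shLacZ group received adenovirus with a hairpin against the bacterial lacZ gene as control. Per the labels, all animals were wild-type C57BL/6J mice aged 8 weeks. They were injected through the tail vein with virus at 0.1 OD and sampled after 12 days, at zeitgeber time 12 (the start of the dark phase), having had no food for 6 h. All 3 groups thus shared the virus, the hairpin vector and the short food withdrawal, and no uninfected liver enters any comparison. Knockdown acts on whatever liver cells the virus reached, and the samples are whole liver, so fewer cells of a type and less RNA per cell cannot be told apart. Nothing in the labels says that the 4 samples of a group are from different animals, and the spread behind each p-value may therefore be partly technical.

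Cholesterol is built in the cytosol and endoplasmic reticulum from acetyl-CoA by way of mevalonate, isoprenoid diphosphates, squalene and lanosterol, and the liver is a main site of this synthesis. When sterols in the endoplasmic reticulum are low, SCAP escorts SREBP2 to the Golgi, where it is cut, and the freed fragment switches on genes of the whole pathway together with the cofactor NF-Y; when sterols are high, the INSIG proteins hold SCAP back. LXR receptors act on the other side of the balance and switch on genes of sterol export and the gene of Mylip (also called IDOL), which degrades lipoprotein receptors.

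Since genes of this pathway share control elements, the promoters of 4 members whose levels are given in full further on are shown, each as the 250 bases before the annotated start, from RefSeq (GRCm38.p6), on the strand of the gene. Capitals mark the sterol regulatory element (searched as TCACNCCAC) and the NF-Y box (CCAAT, which reads ATTGG on the opposite strand).
Hmgcs1: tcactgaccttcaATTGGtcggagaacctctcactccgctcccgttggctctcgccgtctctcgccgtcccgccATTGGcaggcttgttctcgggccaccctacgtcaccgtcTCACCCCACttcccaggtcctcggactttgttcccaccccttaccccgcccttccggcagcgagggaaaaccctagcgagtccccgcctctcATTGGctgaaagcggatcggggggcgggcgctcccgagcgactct
Idi1: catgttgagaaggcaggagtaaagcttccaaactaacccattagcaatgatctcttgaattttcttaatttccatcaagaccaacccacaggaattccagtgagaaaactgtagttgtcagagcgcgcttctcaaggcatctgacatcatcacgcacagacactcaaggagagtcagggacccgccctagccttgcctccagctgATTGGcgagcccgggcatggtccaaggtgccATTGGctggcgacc
Tm7sf2: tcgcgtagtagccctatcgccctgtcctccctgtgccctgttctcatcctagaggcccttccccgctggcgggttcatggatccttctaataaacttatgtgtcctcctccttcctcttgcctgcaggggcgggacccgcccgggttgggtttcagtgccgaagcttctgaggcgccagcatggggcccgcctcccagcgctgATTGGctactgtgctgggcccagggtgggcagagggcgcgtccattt
Ebp: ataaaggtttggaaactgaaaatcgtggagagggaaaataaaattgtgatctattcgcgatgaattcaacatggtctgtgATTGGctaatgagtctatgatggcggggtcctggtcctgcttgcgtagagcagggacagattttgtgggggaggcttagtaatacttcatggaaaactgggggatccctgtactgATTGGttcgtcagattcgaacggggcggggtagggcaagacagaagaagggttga
The Hmgcs1 stretch lies at chr13:119690101-119690350 on the plus strand, Idi1 at chr13:8885356-8885605 on the plus strand, Tm7sf2 at chr19:6067851-6068100 on the minus strand and Ebp at chrX:8193513-8193762 on the minus strand. All marked NF-Y boxes stand in the ATTGG orientation, at 237, 176 and 45 bases before the start in Hmgcs1, at 45 and 14 bases in Idi1, at 47 bases in Tm7sf2 and at 170 and 55 bases in Ebp, counted to the first base of the box. The sterol regulatory element letters stand 137 bases before the start of Hmgcs1. Bases shortly after the start were found in an annotated GENCODE transcript of Idi1, Tm7sf2 and Ebp, but not of Hmgcs1. The distances in Hmgcs1 therefore rest on the RefSeq start alone.

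Promoters were found for 22 of the 27 members, in 28 windows of 250 bases before to 50 after the start, some of which overlap. Npc1, Fdft1, Sqle, Fdps and Stard4 had no entry. CCAAT, on either strand, was in 20 of the 28 windows (71.4%) and in at least 1 window of 20 of the 22 genes, against 37.4% of the 32851 windows of all genes. TCACNCCAC was in 1 window, that of Hmgcs1, against 1.24% of all windows, and the E-box CACGTG was in 6 windows of 5 genes (21.4%), against 7.15% of all windows. These are matches of letters and not sites of binding, and a window without them says nothing about the factor.

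Total counts were 18458222 in shG0s2 replicate 2 and up to 27170419 in the other libraries, and the 9 hepatocyte marker genes used, of 10 listed, all had reads in the samples. G0s2 fell in the shG0s2 livers (log2 fold change -0.98 ± 0.20 SE, edgeR quasi-likelihood adjusted p = 0.00301, and -0.48 with adjusted p = 0.055 under scaling by library size alone) and Rgs16 in the shRgs16 livers (-2.51 ± 0.38, adjusted p = 0.00172). Rgs16 also fell in the shG0s2 livers (-1.32 ± 0.24, adjusted p = 0.00236), while G0s2 did not pass the test in the shRgs16 livers (0.02 ± 0.14, adjusted p = 0.909). On the log2(TPM + 1) scale, however, G0s2 passed as higher in the shRgs16 livers. Levels are given as CPM, a gene's count relative to the size of its library, scaled with TMM, which assumes that most genes do not differ. Scaling by library size alone raised the median log2 fold change of all genes by 0.49 for shG0s2 vs shLacZ, by 0.30 for shRgs16 vs shLacZ and by 0.20 for shG0s2 vs shRgs16. The share of all calls that were higher was then 89.0%, 85.7% and 79.4% in these comparisons, against 51.7%, 50.1% and 50.6% with TMM. Directions below are therefore relative to the bulk of the genes, and each printed direction that turned with library size alone or on the log2(TPM + 1) scale is marked.

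Per unit of transcript length, in the deposited TPM values, the order of the members in the shLacZ livers began with Ebp (108 ± 9.0 TPM, mean ± SD, n = 4), Insig2 (108 ± 12.9 TPM) and Sc5d (106 ± 10.4 TPM). These 3 lay apart from the next gene, Tm7sf2, at 63.2 ± 4.8 TPM. The order ended with Lss (5.97 ± 0.56 TPM), Ggps1 (5.90 ± 0.84 TPM), Mylip (4.88 ± 0.67 TPM) and Mvd (4.46 ± 0.54 TPM). Of the 26 pairs of neighbours in this order, 3 had sample ranges that did not overlap, namely Sc5d and Tm7sf2, Hmgcs1 (45.2 ± 7.7 TPM) and Scap (32.5 ± 2.7 TPM), and Mvk (8.70 ± 1.93 TPM) and Lss. The ranges of all other neighbours overlapped. Hmgcs1, which makes HMG-CoA in the cytosol, averaged 126 ± 21.6 TPM in the shG0s2 livers and 69.1 ± 24.1 TPM in the shRgs16 livers.

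**Figure D1:**
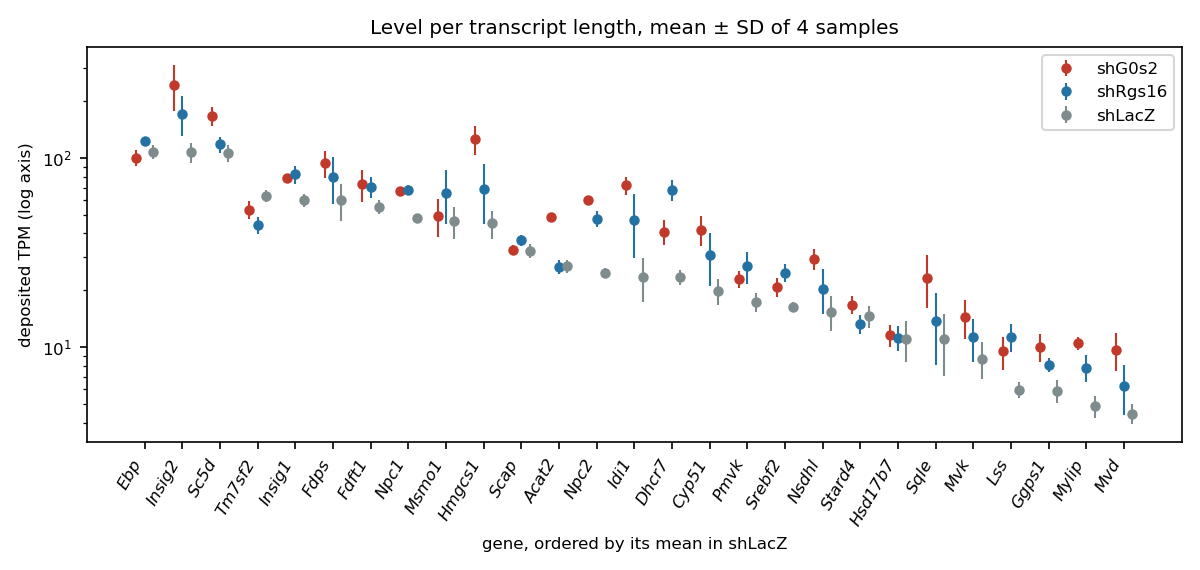
Deposited TPM of the 27 genes (log axis; points are means and bars SD of 4 samples), with shG0s2, shRgs16 and shLacZ side by side and genes ordered by the shLacZ mean. Ebp, Insig2 and Sc5d stand at 106 to 108 TPM in shLacZ and Mvd at 4.46 TPM.

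Against shLacZ and with TMM, the pathway did not move as a block in either knockdown. With library size alone most called members were higher, 19 against 3 lower in shG0s2 and 11 against 2 in shRgs16. So were most of all genes called, 89.0% in shG0s2 and 85.7% in shRgs16. In the shG0s2 livers Hmgcs1 and Idi1, enzymes of the early part of the pathway, were 1.72-fold and 1.71-fold of shLacZ, while Tm7sf2, an enzyme after lanosterol, was 0.509-fold. In the shRgs16 livers Dhcr7, which catalyses a last step to cholesterol, was 2.12-fold of shLacZ and Tm7sf2 was 0.515-fold. Npc2, the sterol carrier of the lysosome, was 1.5-fold of shLacZ in the shG0s2 livers and 1.42-fold in the shRgs16 livers. The directions of these named genes held under every scaling tried.

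With edgeR's quasi-likelihood test at an adjusted p below 0.05 (Benjamini-Hochberg over all genes), 4 of the 27 members were higher and 9 lower in shG0s2 than in shLacZ livers, and 14 did not pass. Over all 15592 genes tested in that comparison, 60.5% were called, 31.3% higher and 29.2% lower, so the members were called no more often than genes at large. The sample ranges of the groups did not overlap for 4 members that were higher and 6 that were lower, while 55.6% of all genes did not overlap. The median log2 fold change of the members was 0.01, and that of all genes was 0.01.

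In shRgs16 against shLacZ livers, 3 members were higher, 6 were lower and 18 did not pass, while 49.1% of the 15324 genes tested were called, 24.6% higher and 24.5% lower. The ranges did not overlap for 2 members that were higher and 6 that were lower, against 45% of all genes in either direction. The members' median log2 fold change was 0.05, beside 0.01 for all genes.

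How many members were called in each direction rested on the scale. With library size alone, 19 members were higher and 3 lower in shG0s2, and 11 were higher and 2 lower in shRgs16, both against shLacZ. Of all 15592 genes tested in shG0s2, 10067 were then higher and 1246 lower, and of 15324 in shRgs16, 7686 and 1279. On the log2(TPM + 1) scale the members' counts were 21 and 1 in shG0s2 and 13 and 1 in shRgs16. There 12310 and 9605 of all genes were called in either direction. By role, with library size alone, 7 of the 8 genes up to the prenyl diphosphates were higher and none lower in shG0s2 and 2 were higher and none lower in shRgs16. Of the 11 genes on to cholesterol 7 were higher and 2 lower in shG0s2 and 3 were higher and 1 lower in shRgs16. Of the 5 sensing genes 3 were higher and 1 lower in shG0s2 and 4 were higher and none lower in shRgs16, and of the 3 transport genes 2 were higher and none lower in shG0s2 and 2 were higher and 1 lower in shRgs16. The counts by role that follow are those with TMM.

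**Figure D2:**
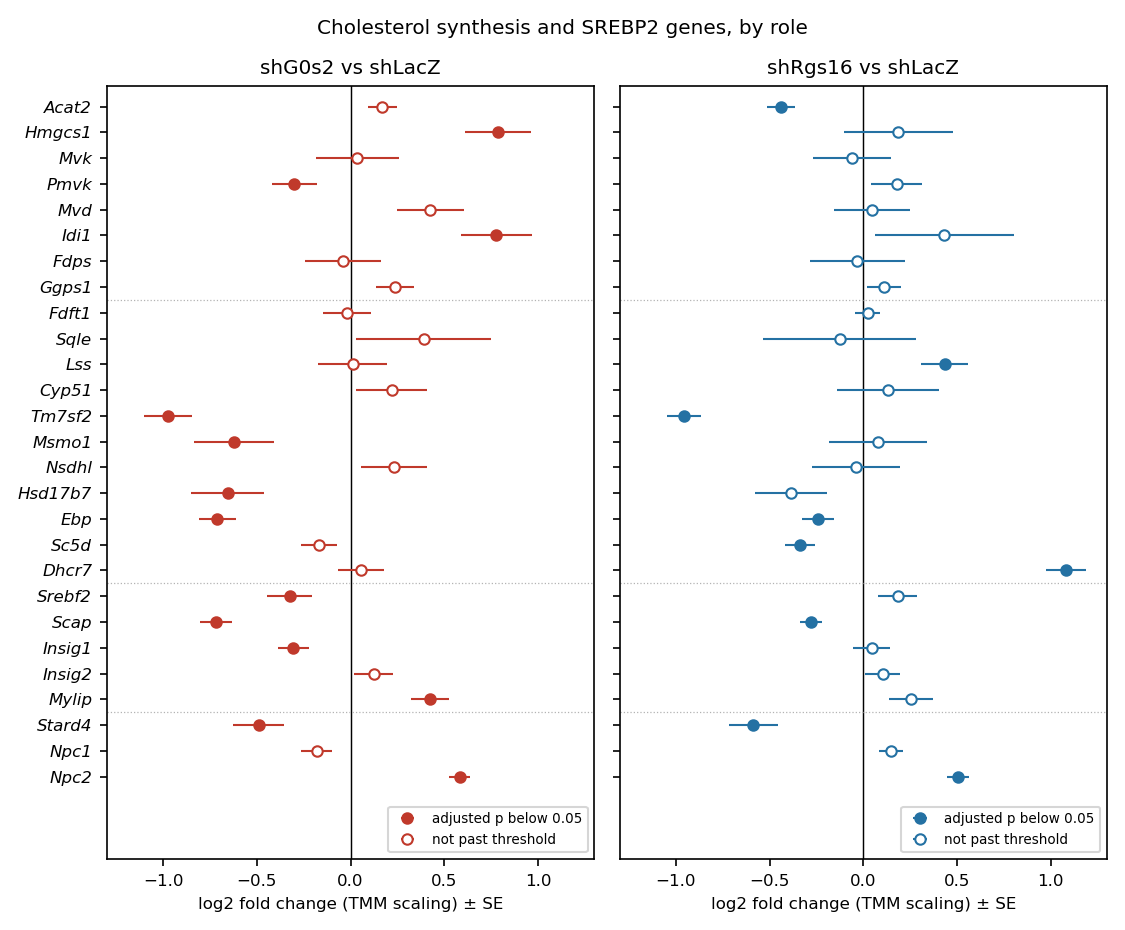
Log2 fold change with TMM scaling (points) and its standard error (bars) of the 27 genes against shLacZ, shG0s2 on the left and shRgs16 on the right, filled where the edgeR adjusted p was below 0.05 and ordered by role. Hmgcs1 (0.79) and Idi1 (0.78) stand to the right and Tm7sf2 (-0.97) to the left in shG0s2, and Dhcr7 (1.08) to the right and Tm7sf2 (-0.96) to the left in shRgs16.

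Among the 8 genes of the steps up to the prenyl diphosphates, 2 were higher and 1 lower in the shG0s2 livers, and none was higher and 1 lower in the shRgs16 livers. Hmgcs1 had 205, 214, 299 and 279 CPM in the shG0s2 livers, 189, 146, 96.4 and 233 CPM in the shRgs16 livers, against 172, 117, 123 and 171 CPM in the shLacZ livers. All shG0s2 values lay above all shLacZ values, while the shRgs16 values ran from below the shLacZ samples to above them. Hmgcs1 rose in shG0s2 (log2 fold change 0.79 ± 0.18, adjusted p = 0.00437) and did not pass in shRgs16 (0.19 ± 0.29, adjusted p = 0.627). Idi1, the isomerase that sets the balance of the 5-carbon isoprenoid units, had 120.1, 99.1, 120.2 and 121 CPM in the shG0s2 livers, 107, 89.8, 41.9 and 127 CPM in the shRgs16 livers, against 79.6, 47.4, 57.1 and 86.4 CPM in the shLacZ livers. Again the shG0s2 samples all lay above the shLacZ samples, 3 of them within 1 CPM of each other, and the shRgs16 samples spread widest. Idi1 rose in shG0s2 (0.78 ± 0.19, adjusted p = 0.00766), with an adjusted p of 0.055 when the spread was taken from all 12 samples. In shRgs16 it did not pass with TMM (0.43 ± 0.37, adjusted p = 0.377) but did on the log2(TPM + 1) scale (0.91, limma adjusted p = 0.0451).

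Acat2, the cytosolic thiolase that joins acetyl-CoA units, had 68.9, 54.96, 65.1 and 62.9 CPM in the shG0s2 livers, 44.4, 40.2, 37.6 and 44.7 CPM in the shRgs16 livers, against 61.9, 52.7, 56.01 and 54.8 CPM in the shLacZ livers. The shRgs16 samples were all lower than the shLacZ samples, and the shG0s2 samples overlapped them. Acat2 fell in shRgs16 (-0.44 ± 0.074, adjusted p = 0.000456), but the difference was -0.14 with library size alone and -0.01 on the log2(TPM + 1) scale, neither of which passed. In shG0s2 it was 0.17 ± 0.077 with TMM (adjusted p = 0.0735). There it passed as higher with library size alone (0.66) and on the log2(TPM + 1) scale (0.84). The neighbouring Acat3 is a close paralogue with 53246 reads over the 12 samples, against 16239 for Acat2, so how the counting split shared reads bears on Acat2. Pmvk, the second kinase of mevalonate, had 14.7, 11.1, 14.5 and 15.1 CPM in the shG0s2 livers, 18.6, 19.02, 15.8 and 24.5 CPM in the shRgs16 livers, against 17.6, 15.1, 15.8 and 20.3 CPM in the shLacZ livers. All shG0s2 samples lay below all shLacZ samples, the highest only just. It fell in shG0s2 (-0.30 ± 0.12, adjusted p = 0.0454) with TMM, but the sign turned to 0.19 with library size alone and 0.38 on the log2(TPM + 1) scale. The call was lost when shLacZ replicate 1 or 4 or shG0s2 replicate 1, 2 or 3 was left out (adjusted p 0.055 to 0.141). Mvk, Mvd, Fdps and Ggps1 passed in none of the comparisons with TMM. Their log2 fold changes ran from -0.04 ± 0.20 (Fdps) to 0.43 ± 0.18 (Mvd, the decarboxylase) in shG0s2. In shRgs16 they ran from -0.06 ± 0.21 (Mvk, the first kinase) to 0.11 ± 0.091 (Ggps1, which makes geranylgeranyl diphosphate). In shG0s2 all of them passed as higher against shLacZ with library size alone and on the log2(TPM + 1) scale. In shRgs16 only Ggps1 did. The sign of Fdps in shG0s2 turned with library size alone (0.45), as did that of Mvk in shRgs16 (0.24), and likewise on the log2(TPM + 1) scale (0.66 and 0.33).

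Among the 11 genes from squalene on to cholesterol, none was higher and 4 were lower in the shG0s2 livers, and 2 were higher and 3 lower in the shRgs16 livers. Tm7sf2, a sterol reductase that acts on the double bond at carbon 14 of sterol intermediates, had 38.6, 28.9, 45.3 and 36.7 CPM in the shG0s2 livers, 42.2, 35.5, 33.7 and 41.3 CPM in the shRgs16 livers, against 71.01, 67.4, 72.7 and 84.9 CPM in the shLacZ livers. All 8 knockdown samples lay below all shLacZ samples. Tm7sf2 fell in shG0s2 (-0.97 ± 0.13, adjusted p = 8.49e-05) and in shRgs16 (-0.96 ± 0.092, adjusted p = 9.66e-06), which share their control samples. The fall was smaller on other scales, at -0.49 with library size alone and -0.24 on the log2(TPM + 1) scale in shG0s2, and at -0.65 and -0.51 in shRgs16. In GENCODE vM21, 12.1% of the exon bases of Tm7sf2 lie in exons of Vps51 on the same strand, whose total count was 44.8% of that of Tm7sf2, so the 2 genes share reads that the counting had to divide.

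Dhcr7, the reductase that turns 7-dehydrocholesterol into cholesterol, had 52.9, 40.7, 62.6 and 54.7 CPM in the shG0s2 livers, 103, 113, 90.4 and 127 CPM in the shRgs16 livers, against 56.5, 44.9, 48.8 and 54.04 CPM in the shLacZ livers. Each shRgs16 sample lay above every shG0s2 and shLacZ sample, and those groups overlapped. Dhcr7 rose in shRgs16 (1.08 ± 0.11, adjusted p = 1.95e-05) and did not pass in shG0s2 with TMM (0.06 ± 0.12, adjusted p = 0.712). In shG0s2 it passed as higher with library size alone (0.54) and on the log2(TPM + 1) scale (0.77). Lss, the cyclase that makes lanosterol, had 29.9, 19.5, 34.95 and 30.3 CPM in the shG0s2 livers, 39.8, 37.2, 33.5 and 44.7 CPM in the shRgs16 livers, against 35.1, 23.5, 26.5 and 29.5 CPM in the shLacZ livers. The shRgs16 and shLacZ ranges overlapped, with only shLacZ replicate 1 inside the shRgs16 range. Lss rose in shRgs16 (0.43 ± 0.12, adjusted p = 0.0144) and was level in the fit of shG0s2 with TMM (0.01 ± 0.18, adjusted p = 0.96). In shG0s2 it passed as higher with library size alone (0.49) and on the log2(TPM + 1) scale (0.58).

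Ebp, the isomerase that moves the ring double bond between positions 8 and 7, had 76.1, 65.97, 82.3 and 75.8 CPM in the shG0s2 livers, 107, 100.1, 108 and 104 CPM in the shRgs16 livers, against 113, 126, 109.7 and 146 CPM in the shLacZ livers. The shG0s2 samples were lowest, the shRgs16 samples next and the shLacZ samples highest, without overlap. Ebp fell in shG0s2 (-0.71 ± 0.10, adjusted p = 6.7e-05), less so at -0.10 and without passing on the log2(TPM + 1) scale. It also fell in shRgs16 with TMM (-0.24 ± 0.084, adjusted p = 0.0313), where the sign turned to 0.06 with library size alone and 0.19 on the log2(TPM + 1) scale. The shRgs16 call was lost without shLacZ replicate 2 or 4 or shRgs16 replicate 1, 2 or 4 (adjusted p 0.0534 to 0.0843).

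Msmo1, the oxidase that starts removal of the methyl groups at carbon 4, had 47.7, 40.9, 71.6 and 58.2 CPM in the shG0s2 livers, 107, 74.96, 58.2 and 117 CPM in the shRgs16 livers, against 97.2, 60.1, 85.1 and 96.1 CPM in the shLacZ livers. The shG0s2 samples tended to be low but overlapped the shLacZ samples. Msmo1 fell in shG0s2 with TMM (-0.62 ± 0.21, adjusted p = 0.0369), but the difference was -0.14 with library size alone and turned to 0.09 on the log2(TPM + 1) scale. Without shLacZ replicate 1, 3 or 4 or shG0s2 replicate 1, 2 or 4 it no longer passed (adjusted p 0.0606 to 0.0926). Hsd17b7, a keto reductase of the same methyl removal, had 29.02, 25.9, 37.3 and 32.6 CPM in the shG0s2 livers, 44.6, 33.5, 32.7 and 41.2 CPM in the shRgs16 livers, against 54.4, 44.9, 34.9 and 64.01 CPM in the shLacZ livers. Only shLacZ replicate 3 lay within the shG0s2 range. Hsd17b7 fell in shG0s2 with TMM (-0.66 ± 0.19, adjusted p = 0.018), with -0.16 under library size alone and a turned sign (0.07) on the log2(TPM + 1) scale. Without shG0s2 replicate 1 its adjusted p was 0.05001.

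Sc5d, the desaturase that introduces the double bond at carbon 5, had 237, 255, 308 and 272 CPM in the shG0s2 livers, 252, 223, 237 and 249.96 CPM in the shRgs16 livers, against 286, 288, 287 and 352 CPM in the shLacZ livers. All shRgs16 samples lay below all shLacZ samples, and the shG0s2 samples overlapped the shLacZ samples. Sc5d fell in shRgs16 with TMM (-0.34 ± 0.078, adjusted p = 0.00376), at -0.03 with library size alone and with a turned sign (0.15) on the log2(TPM + 1) scale. Fdft1 (squalene synthase), Sqle (squalene epoxidase), Cyp51 (lanosterol demethylase) and Nsdhl passed in none of the comparisons with TMM. Their log2 fold changes with TMM ran from -0.02 ± 0.13 (Fdft1) to 0.39 ± 0.36 (Sqle) in shG0s2 and from -0.13 ± 0.41 (Sqle) to 0.13 ± 0.27 (Cyp51) in shRgs16. In shG0s2 all of them passed as higher against shLacZ with library size alone and on the log2(TPM + 1) scale. In shRgs16 only Fdft1 did. Fdft1 turned to 0.46 in shG0s2 and Sqle to 0.19 in shRgs16 with library size alone, and likewise on the log2(TPM + 1) scale (0.37 and 0.26). The standard errors of Sqle, 0.36 and 0.41 in these fits, were the largest of the members. Exons of Fdft1 overlap exons of Ctsb on the opposite strand over 18.3% of their bases. Opposite-strand overlaps also touch Ggps1 (Arid4b, 5.44% of bases), Cyp51 (Akap9, 3.76%) and Npc1 (Rmc1, 4.5%), among other members. The total counts of Arid4b, Akap9 and Rmc1 were 258.6%, 78.9% and 12.8% of those of these members in turn. Whether the counting used strand is not given in the sources used here.

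**Figure D3:**
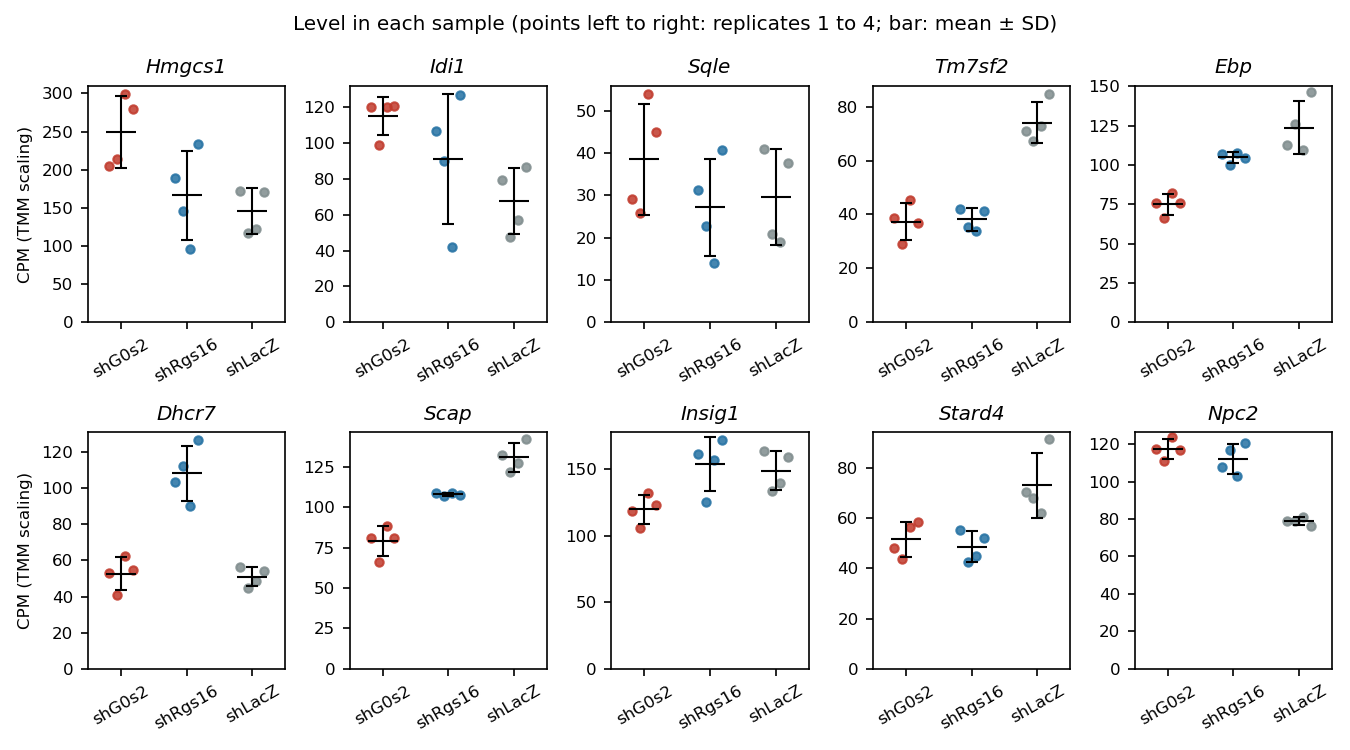
CPM of 10 of the genes in each sample (points, replicates 1 to 4 from left to right within a group) with mean and SD (bars; n = 4), for shG0s2, shRgs16 and shLacZ in that order. The shG0s2 points of Hmgcs1 (205 to 299 CPM) lie above those of shLacZ (117 to 172 CPM), and all shRgs16 points of Dhcr7 (90.4 to 127 CPM) lie above those of both other groups.

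Among the 5 genes of sterol sensing, 1 was higher and 3 lower in the shG0s2 livers, and none was higher and 1 lower in the shRgs16 livers. Scap, the escort of SREBP, had 80.7, 66.3, 88.5 and 81.1 CPM in the shG0s2 livers, 109, 107, 109 and 108 CPM in the shRgs16 livers, against 132, 122, 127 and 143 CPM in the shLacZ livers. The groups did not overlap, with shG0s2 lowest and shLacZ highest. Scap fell with TMM in shG0s2 (-0.72 ± 0.086, adjusted p = 1.82e-05) and in shRgs16 (-0.28 ± 0.057, adjusted p = 0.00173), but the values were -0.23 and 0.02 with library size alone and 0.01 and 0.18 on the log2(TPM + 1) scale, so the sign turned on the TPM scale in both and in shRgs16 on both scales. Srebf2, the gene of SREBP2 itself, had 45.6, 41.2, 59.9 and 49.1 CPM in the shG0s2 livers, 71.9, 62.7, 63.9 and 82.5 CPM in the shRgs16 livers, against 69.6, 61.2, 52.3 and 63.97 CPM in the shLacZ livers. The shG0s2 samples overlapped the shLacZ samples through shG0s2 replicate 3. Srebf2 fell in shG0s2 with TMM (-0.32 ± 0.12, adjusted p = 0.0378), with a turned sign at 0.16 with library size alone and 0.33 on the log2(TPM + 1) scale. The call was lost without shLacZ replicate 1, 2 or 4 or shG0s2 replicate 1, 2 or 4 (adjusted p 0.0691 to 0.0987).

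Insig1, which retains SCAP and is itself an SREBP target, had 119, 106, 132 and 123 CPM in the shG0s2 livers, 162, 125, 157 and 172 CPM in the shRgs16 livers, against 164, 134, 139 and 159 CPM in the shLacZ livers. All shG0s2 samples lay below all shLacZ samples. Insig1 fell in shG0s2 with TMM (-0.30 ± 0.085, adjusted p = 0.00802), but was higher by 0.18 with library size alone and by 0.38 on the log2(TPM + 1) scale. Insig2, its paralogue, passed in neither knockdown with TMM (0.12 ± 0.10 in shG0s2 and 0.10 ± 0.094 in shRgs16). In both it passed as higher with library size alone (0.62 and 0.41) and on the log2(TPM + 1) scale (1.14 and 0.65). Mylip, the LXR-induced ligase, had 20.99, 16.5, 19.1 and 20.5 CPM in the shG0s2 livers, 19.4, 18.3, 17.7 and 13.6 CPM in the shRgs16 livers, against 16.2, 14.5, 14.9 and 12.3 CPM in the shLacZ livers. All shG0s2 samples lay above the shLacZ samples, the lowest by a small margin. Mylip rose in shG0s2 (0.42 ± 0.10, adjusted p = 0.0032) and did not pass in shRgs16 with TMM (0.25 ± 0.12, adjusted p = 0.0933). In shRgs16 it passed as higher with library size alone (0.55) and on the log2(TPM + 1) scale (0.58).

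Of the 3 transport genes, Npc2, which hands cholesterol to the membrane protein NPC1 in the lysosome, had 118, 111, 124 and 117 CPM in the shG0s2 livers, 108, 117, 103 and 121 CPM in the shRgs16 livers, against 79.01, 78.7, 81.3 and 76.5 CPM in the shLacZ livers. Every knockdown sample lay above every shLacZ sample, and the shLacZ samples lay within 5 CPM of each other. Npc2 rose in shG0s2 (0.58 ± 0.054, adjusted p = 2.39e-06) and in shRgs16 (0.50 ± 0.06, adjusted p = 3.54e-05). Stard4, a soluble sterol carrier and known SREBP2 target, had 48.1, 43.7, 56.7 and 58.4 CPM in the shG0s2 livers, 55.4, 42.4, 44.9 and 52.3 CPM in the shRgs16 livers, against 70.6, 68.3, 61.98 and 91.8 CPM in the shLacZ livers. All knockdown samples lay below all shLacZ samples. Stard4 fell with TMM in shG0s2 (-0.49 ± 0.13, adjusted p = 0.0103) and in shRgs16 (-0.59 ± 0.13, adjusted p = 0.00466), but in shG0s2 it was 0.00 with library size alone and turned to 0.19 on the log2(TPM + 1) scale, and in shRgs16 it was -0.28 and -0.12. Npc1 had 174, 134, 168 and 154 CPM in the shG0s2 livers, 193, 211, 208 and 186 CPM in the shRgs16 livers, against 195, 181, 169 and 174 CPM in the shLacZ livers, and passed in neither knockdown against shLacZ (-0.18 ± 0.084 in shG0s2 and 0.15 ± 0.064 in shRgs16). In shG0s2 the sign of Npc1 turned to 0.31 with library size alone (adjusted p = 0.00164, edgeR) and to 0.46 on the log2(TPM + 1) scale (adjusted p = 5.76e-05, limma). In shRgs16 Npc1 also passed as higher on these scales (0.45 and 0.48).

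With TMM, 1 member (Npc2) was higher in both knockdowns, 4 (Ebp, Scap, Stard4 and Tm7sf2) were lower in both and none had opposite calls. With library size alone, only Tm7sf2 stayed lower in both. Ggps1, Fdft1, Lss, Dhcr7, Insig1, Insig2, Mylip and Npc1 then joined Npc2 as higher in both. Of all genes, 60.5% were called in shG0s2 and 49.1% in shRgs16 with TMM, and how many were called alike in both was not counted. Both comparisons use the same shLacZ samples, so these counts are not independent of each other. The direct comparison of shG0s2 with shRgs16 livers tests the difference between the knockdowns. There, 1 member was higher, 7 were lower and 19 did not pass, beside 41.5% of 16018 genes called, 21% higher and 20.5% lower. Acat2 was higher in shG0s2 than in shRgs16 (0.60 ± 0.078, adjusted p = 2.4e-05). Dhcr7 had the largest difference of the members with TMM (-1.04 ± 0.13, adjusted p = 4.32e-05). It was lower in shG0s2 under each scaling tried, though on the log2(TPM + 1) scale (-0.73) it was not the largest. Lower in shG0s2 than in shRgs16 were also Srebf2 (-0.52 ± 0.12, adjusted p = 0.00408), Pmvk (-0.49 ± 0.13), Ebp (-0.48 ± 0.085), Scap (-0.45 ± 0.075), Insig1 (-0.36 ± 0.10) and Npc1 (-0.34 ± 0.079). All 7 kept their sign with library size alone and on the log2(TPM + 1) scale, although Pmvk, Insig1 and Npc1 passed under neither and Scap did not pass on the TPM scale. Under library size alone 8 members were higher and 4 lower, beside 6054 higher and 1568 lower among all genes. Hmgcs1, higher in shG0s2 than in shLacZ, did not pass with TMM between the knockdowns (0.59 ± 0.26, adjusted p = 0.101). It passed with library size alone (0.78, adjusted p = 0.0301), on the log2(TPM + 1) scale (0.92, limma adjusted p = 0.00853) and without shRgs16 replicate 4 (0.79, adjusted p = 0.0332).

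Within each group, the samples differed from each other in the pathway as a whole. Each member's log2 CPM was set against the mean of its own group, sample by sample. In shG0s2, 15, 2, 24 and 23 of the 27 members lay above their group mean in replicates 1 to 4. In shRgs16 the counts were 22, 7, 6 and 22, and in shLacZ they were 22, 3, 4 and 20. TMM holds the bulk of genes near balance in each sample, and 48.5% to 53.4% of all 16018 genes lay above the mean. With library size alone, where this share ran from 34.5% in shG0s2 replicate 3 to 74.4% in shLacZ replicate 3, the members' counts were 12, 4, 23 and 24 in shG0s2, 22, 12, 4 and 22 in shRgs16 and 21, 1, 14 and 20 in shLacZ. On the log2(TPM + 1) scale they were 13, 3, 23 and 24, then 21, 15, 4 and 21, and 22, 3, 13 and 17 in the same order of groups. On all 3 scales few members lay above the mean in shG0s2 replicate 2, shRgs16 replicate 3 and shLacZ replicate 2. In shRgs16 replicate 2 and shLacZ replicate 3 few did with TMM, and 12 to 15 of 27 on the others. Of all genes, 62.4% and 74.4% lay above the mean in these samples with library size alone. On the log2(TPM + 1) scale 65.6% and 70.7% did, so the members' shares stayed below those of all genes.

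The median deviation of the members, on the log2 scale, was 0.02, -0.23, 0.16 and 0.07 in the shG0s2 samples, 0.14, -0.05, -0.20 and 0.20 in the shRgs16 samples and 0.14, -0.11, -0.08 and 0.12 in the shLacZ samples. The medians of all genes were within 0.02 of 0 in every sample. Of the 27 members, 22 were lowest in shG0s2 replicate 2 among the shG0s2 samples, 17 were lowest in shRgs16 replicate 3 and 15 in shLacZ replicate 2 within their groups. The highest sample was shG0s2 replicate 3 for 16 members, shRgs16 replicate 4 for 18 and shLacZ replicate 1 for 14.

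Sqle and the early enzymes Idi1 and Hmgcs1 had the widest swings of the members. Sqle had 29.2, 25.9, 53.9 and 45.03 CPM in the shG0s2 livers, 31.2, 22.8, 14.02 and 40.8 CPM in the shRgs16 livers, against 41.04, 20.96, 18.9 and 37.7 CPM in the shLacZ livers. In each group Sqle was high in a pair of samples and low in another pair, with up to a 2.91-fold range in shRgs16. Its deviations were -0.33, -0.51, 0.55 and 0.29 in shG0s2, 0.30, -0.15, -0.85 and 0.69 in shRgs16 and 0.55, -0.42, -0.56 and 0.43 in shLacZ. Those of Hmgcs1 had the same sign in all 12 samples, at -0.26, -0.20, 0.28 and 0.18 in shG0s2, 0.26, -0.11, -0.71 and 0.56 in shRgs16 and 0.26, -0.29, -0.22 and 0.25 in shLacZ. The within-group SD of log2 CPM was 0.58 for Sqle, 0.48 for Idi1, 0.39 for Hmgcs1 and 0.39 for Msmo1. At the other end it was 0.07 for Npc2, 0.12 for Scap and 0.12 for Acat2. The median was 0.21 over the members and 0.17 over all genes.

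**Figure D4:**
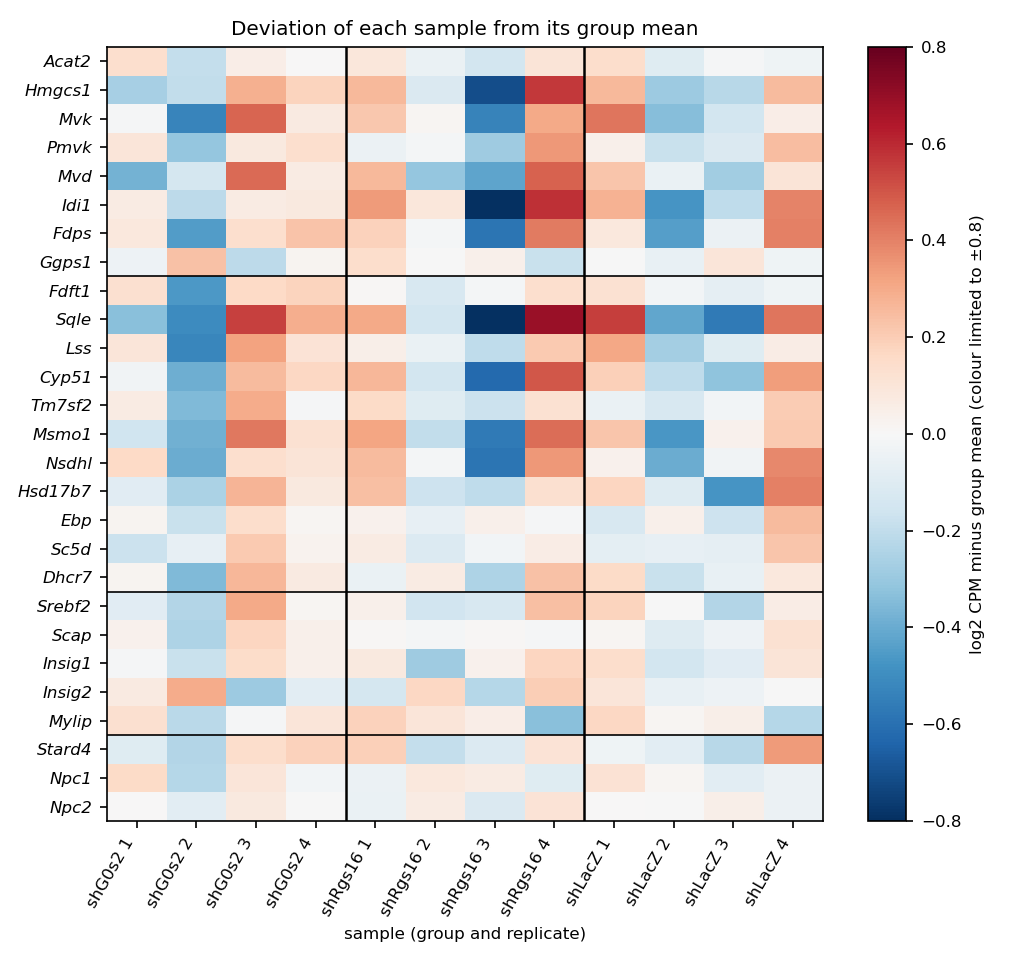
Deviation of log2 CPM from the group mean (colour, limited to ± 0.8) for each gene (rows, by role) and each sample (columns, shG0s2, shRgs16 and shLacZ). Columns turn mostly red or mostly blue together, as in shG0s2 replicate 2 (2 of 27 genes above the mean) and shRgs16 replicate 4 (22 of 27).

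Hmgcs1, taken as a yardstick after the values had been seen, was used to count in how many of the 12 samples another gene lay on the same side of its group mean. Of the other 26 members, 17 did so in 10 samples or more, while 3.27% of the 16017 other genes tested did. Mvd, Sqle, Cyp51, Hsd17b7 and Srebf2 matched in all 12 samples, as did 0.150% of all genes. Since Sqle and Cyp51 share every sign with Hmgcs1, they give the same counts as yardsticks. By role, 6 of the 7 other genes up to the prenyl diphosphates, 8 of the 11 on to cholesterol, 2 of the 5 sensing genes (Srebf2 and Insig1) and 1 of the 3 transport genes (Stard4) reached 10 samples. Outside this pattern were Npc1 and Mylip with 4 samples each, Insig2 and Ggps1 with 5, Npc2 with 6 and Ebp with 7, near the median of 6 over all genes, and Tm7sf2, Scap and Dhcr7 had 9. With library size alone 11 of 26 members reached 10 samples (1.66% of all genes), and on the log2(TPM + 1) scale 10 did (1.62%).

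**Figure D5:**
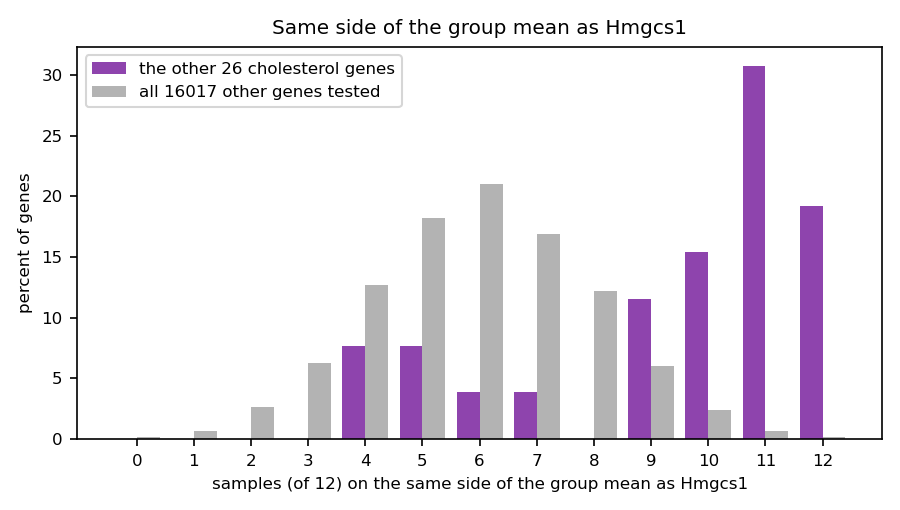
Share of genes (percent, vertical axis) by the number of the 12 samples in which they lay on the same side of their group mean as Hmgcs1, for the other 26 cholesterol genes and for all 16017 other genes tested. The cholesterol genes peak at 11 samples (8 of 26) and all genes at 6.

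The replicate pattern was set beside other properties of the same libraries. The low sample of the shG0s2 group, replicate 2, was the shallowest library and had the lowest summed level of the 9 hepatocyte markers, 32371 CPM, while the shG0s2 maximum was 53335 CPM. Without it, 17 of 26 members lay on the side of Hmgcs1 in at least 9 of the other 11 samples, against 4.77% of all genes. The low sample of the shRgs16 group, replicate 3, had the highest hepatocyte sum of its group, 64403 CPM, and the lowest sums of the 8 stellate cell and fibroblast markers, 317 CPM, and of the 10 cell cycle genes. In shLacZ replicates 2 and 3, both low with TMM, had the highest and the lowest hepatocyte sums of that group, 65261 and 53993 CPM. The summed level of the 4 neutrophil markers was 40.4, 25.5, 32.2 and 24.4 CPM in shG0s2, 25.0, 22.6, 12.7 and 32.9 CPM in shRgs16 and 35.0, 17.3, 11.9 and 33.6 CPM in shLacZ. It was lower in replicates 2 and 3 than in replicates 1 and 4 of shRgs16 and of shLacZ, as the members were with TMM, and in shG0s2 it did not follow them. The part of cell makeup and depth in the replicate pattern was otherwise not tested.

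Of the pathway's neighbours, the 14 listed SREBP1 targets of fatty acid synthesis had the most genes with the same replicate pattern, 4 (Elovl5, Fads1, Fads2 and Slc25a1) on the side of Hmgcs1 in 10 samples or more. Among 13 genes of sterol esters and intracellular transfer 1 did (Tmem97, a sterol-responsive membrane protein). None did among the 8 genes of SREBP processing and degradation, the 13 of the non-sterol isoprenoid branches and the 7 LXR and sterol efflux genes. In the 10 cell cycle genes 2 did (Mcm5 and Ccnd1), and none in the other cell type lists. The 3 neutrophil markers tested came near, with 9 samples for S100a8 and S100a9 and 8 for Retnlg, and their median of 9 was above the 6.5 of the SREBP1 targets and the 6 of all genes.

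Against shLacZ, 4 of the 14 SREBP1 targets were higher and 4 lower in shG0s2, and 2 were higher and 6 lower in shRgs16 with TMM. Over all genes, 31.3% were higher and 29.2% lower in shG0s2, and 24.6% and 24.5% in shRgs16. With library size alone 89.0% and 85.7% of all calls were higher. The same shares stand beside the counts of each list that follows, cell type markers included. Under library size alone 9 of the 14 SREBP1 targets were higher and none lower in shG0s2, and 3 were higher and 3 lower in shRgs16. On the log2(TPM + 1) scale these were 12 and 0, and 5 and 2. Fasn, the fatty acid synthase, rose in shG0s2 (0.92 ± 0.11, adjusted p = 2.77e-05) and did not pass in shRgs16 (-0.14 ± 0.078, adjusted p = 0.161; sign turned, 0.16, with library size alone), and Acaca, the acetyl-CoA carboxylase, rose in both (0.62 ± 0.083 and 0.27 ± 0.063). Slc25a1, the citrate carrier, fell in shRgs16 (-0.62 ± 0.068, adjusted p = 2.07e-05), also with library size alone (-0.32). Fasn was also higher in shG0s2 than in shRgs16 (1.04 ± 0.10, adjusted p = 1.93e-06). Hmgcs1 had the same direction there and did not pass with TMM (0.59), but did with library size alone (0.78) and on the log2(TPM + 1) scale (0.92).

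Among the 8 SREBP processing and degradation genes, 1 was higher and 3 lower in shG0s2, and 1 higher and 1 lower in shRgs16 with TMM. With library size alone 6 were higher and 1 lower in shG0s2 and 6 higher and none lower in shRgs16, and on the log2(TPM + 1) scale 7 were higher and none lower in each. Rnf145, a sterol-regulated ligase of the endoplasmic reticulum, rose in shG0s2 (0.96 ± 0.092, adjusted p = 3.04e-06), and Erlin1, which binds the SCAP complex, rose in shRgs16 (0.53 ± 0.049, adjusted p = 6.77e-06).

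In the 7 LXR and efflux genes, 2 were higher and 4 lower in shG0s2, and 1 higher and 3 lower in shRgs16 with TMM. Scaled by library size alone, 4 were higher and 1 lower in shG0s2 and 4 higher and none lower in shRgs16, and on the log2(TPM + 1) scale 5 and 4 were higher and none lower. Abcg1, the exporter of cholesterol to lipoproteins, rose in shG0s2 (1.31 ± 0.09, adjusted p = 2.54e-07) and in shRgs16 (1.05 ± 0.10, adjusted p = 6.7e-06). Abcg8, a subunit of the biliary sterol exporter, fell in shG0s2 (-0.87 ± 0.11, adjusted p = 8.08e-05; -0.38 with library size alone and -0.10, not passing, on the log2(TPM + 1) scale), and Nr1h2, the gene of LXR beta, rose there (0.55 ± 0.072, adjusted p = 3.68e-05). Abcg1 is also well expressed in macrophages. Of 8 macrophage markers 7 were higher in each knockdown, with sums of 1157 to 1360 CPM in shG0s2, 1081 to 1259 CPM in shRgs16 and 799 to 886 CPM in shLacZ, and their part in the Abcg1 and Npc2 differences was not tested.

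Of the 13 ester and transfer genes, 5 were higher and 5 lower in shG0s2, and 3 higher and 4 lower in shRgs16 with TMM, while 7 and 8 were higher and none lower with library size alone and 10 were higher and none lower in each on the log2(TPM + 1) scale. Soat1, which esterifies cholesterol, rose in shG0s2 (1.24 ± 0.081, adjusted p = 1.88e-07) and in shRgs16 (0.98 ± 0.077, adjusted p = 2.37e-06), as did Gramd1b, a carrier from the plasma membrane (1.41 ± 0.18 and 0.92 ± 0.21), and Lipa, the lysosomal acid lipase, rose in shG0s2 (0.64 ± 0.06, adjusted p = 2.55e-06). Of the 13 genes of the non-sterol branches, 2 were higher and 6 lower in shG0s2 and none higher and 6 lower in shRgs16 with TMM, but with library size alone 9 and 6 were higher and none lower. Rabggtb, a subunit of Rab geranylgeranyl transferase, and Fnta, a subunit of both farnesyl and geranylgeranyl transferases, were such genes, at -0.42 ± 0.072 and -0.36 ± 0.065 in shG0s2 with TMM and 0.07 and 0.12 with library size alone. Pdss2, of coenzyme Q synthesis, fell in shRgs16 with TMM (-0.56 ± 0.11, adjusted p = 0.00176; -0.25 with library size alone).

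Levels of cell type markers also differed between the groups. Of the 9 hepatocyte markers, 8 were lower in shG0s2 and 6 lower and 2 higher in shRgs16 with TMM (7 and 3 lower with library size alone), with sums of 32371 to 53335 CPM, 58729 to 64403 CPM and 53993 to 65261 CPM in shG0s2, shRgs16 and shLacZ. The 10 cell cycle genes were all higher in shG0s2 and 9 were higher in shRgs16, and the 8 stellate and fibroblast markers were all higher in shG0s2 and 5 in shRgs16. Of 6 T and NK cell markers 4 were higher in shG0s2 and 5 in shRgs16, of 5 bile duct markers 2 in each, of 6 endothelial markers 1 was lower in shG0s2 and 1 higher in shRgs16, of 3 B cell markers 1 was higher in shRgs16, and of 3 neutrophil markers tested none was called. These are counts with TMM. By library size alone, 4 endothelial markers were higher in shG0s2 and 5 in shRgs16, with none lower, and 2 neutrophil markers were higher in shG0s2 and 1 in shRgs16. The stellate sums were 722 to 918 CPM in shG0s2, 317 to 556 CPM in shRgs16 and 198 to 259 CPM in shLacZ. None of the listed markers was at 0 in all samples, and the part of these shifts in the member differences was not tested.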

How the data were processed

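Ribosomal RNA was removed from DNase I-treated liver RNA, which was sequenced in 12 samples, 4 per group. Per the file headers, the deposited tables hold an estimated count and a TPM value per gene and sample. The authors' TPM values sum to between 992336 and 996333 per sample. Tools in the submitters' processing notes are Bowtie2 2.2.9, SAMtools 1.9, GATK 3.8, fastp 0.19.5 and DESeq2. The sources used here do not give the genome build, the counter or its use of strand. The shLacZ columns are identical in both tables.

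Estimated counts were rounded to whole numbers and tested with edgeR 4.0.16 in R 4.3.3 (filterByExpr, TMM, robust quasi-likelihood fit, two-sided, Benjamini-Hochberg over all genes tested, threshold 0.05). Each knockdown was fitted with shLacZ on their 8 samples, and shG0s2 with shRgs16 in a model of all 12. The script was tested on simulated data. CPM per sample uses TMM over the 12 samples, and deviations from group means use log2 CPM with a prior count of 2. Alternatives were DESeq2 1.42.0, limma 3.58.1 (voom, and log2(TPM + 1) or log2(TPM + 0.1) with trend), other scalings and filters, a 1.5-fold minimum, a replicate block and each sample left out. No 2 samples of a group differed by as little as sampling noise (chi-square per degree of freedom 11.25 to 43.39).

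Every member is named. Values per sample are given for members called in any comparison and, chosen after the values were seen, for Sqle. From the other pathway lists, up to 3 genes with the smallest p against shLacZ are named. The members and lists were chosen with earlier results of these data known. Promoters came from RefSeq (GRCm38.p6) and exon overlaps from GENCODE vM21.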

Additional observations from a re-analysis of the deposited data

Results flagged for a closer look

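Each group of 4 samples was searched for a highest or lowest value that lay apart from the other 3 (Dixon's test, 95% level) in each of the 27 genes, 81 tests in all, of which chance flags about 1 in 20. In 5 of them a sample stood apart. Pmvk was at 11.1 CPM in shG0s2 replicate 2, with the other shG0s2 samples at 14.5 to 15.1 CPM. In the same sample Idi1 was at 99.1 CPM (the others at 120.1 to 120.9 CPM), Fdft1 at 58.1 CPM (the others at 87.4 to 90.6 CPM) and Nsdhl at 27.4 CPM (the others at 38.7 to 40.3 CPM). Sc5d was at 352 CPM in shLacZ replicate 4, with the others at 286 to 288 CPM. The 4 low values share 1 library, shG0s2 replicate 2, the shallowest of the 12 with 18458222 counts.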

How the results depend on the processing

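The 81 member values (27 genes in 3 comparisons) kept their sign and their side of the threshold in 81 cases with RLE scaling, 78 with DESeq2, 78 with limma-voom, 78 with a minimum of 1 CPM in 4 samples and 76 with no filter. With the spread taken from all 12 samples, Pmvk, Idi1 and Msmo1 no longer passed in shG0s2 vs shLacZ (adjusted p = 0.0619, 0.0553 and 0.0576). With library size alone 32 kept both and 17 turned sign, and on the log2(TPM + 1) or log2(TPM + 0.1) scale 25 kept both and 23 turned. Of those that turned, 7 with library size alone and 8 on either TPM scale passed neither there nor with TMM (Mvk, Fdps, Sqle and Nsdhl in shRgs16 vs shLacZ and Fdps and Fdft1 in shG0s2 vs shRgs16 on each scale, with Tm7sf2 in the last comparison for library size alone and Hsd17b7 in both comparisons for TPM). Of the others, the log2 values in shG0s2 vs shLacZ were, for library size alone, log2(TPM + 1) and log2(TPM + 0.1) in turn, 0.19, 0.38 and 0.40 for Pmvk, 0.45, 0.66 and 0.67 for Fdps, 0.46, 0.37 and 0.38 for Fdft1, 0.32, 0.64 and 0.64 for Sc5d, 0.16, 0.33 and 0.35 for Srebf2, 0.18, 0.38 and 0.39 for Insig1, 0.0016, 0.19 and 0.20 for Stard4 and 0.31, 0.46 and 0.46 for Npc1. On the 2 TPM scales alone they were 0.093 and 0.095 for Msmo1, 0.074 and 0.082 for Hsd17b7 and 0.010 and 0.011 for Scap. In shRgs16 vs shLacZ they were 0.064, 0.19 and 0.19 for Ebp, 0.023, 0.18 and 0.18 for Scap and, on the TPM scales, 0.15 and 0.15 for Sc5d. In shG0s2 vs shRgs16 Tm7sf2 turned to 0.27 and 0.27 on the TPM scales.

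Members called higher and lower in shG0s2 vs shLacZ numbered 19 and 3 with library size alone, 21 and 1 on either TPM scale, and 2 and 5 with a 1.5-fold minimum. In shRgs16 vs shLacZ they numbered 11 and 2, 13 and 1, and 1 and 2 in these settings. In shG0s2 vs shRgs16 they numbered 8 and 4 with library size alone, 9 and 3 on the TPM scales, and 1 and 1 with a 1.5-fold minimum. Among all genes with library size alone, those called higher and lower numbered 10067 and 1246, 7686 and 1279, and 6054 and 1568 in the 3 comparisons. The 1.5-fold minimum left 5343, 3486 and 2785 of 9431, 7519 and 6640 genes called in the 3 comparisons. The count of members on the side of Hmgcs1 in 10 samples or more, 17 of 26, became 11 with library size alone and 10 on the log2(TPM + 1) scale; both settings and the count without shG0s2 replicate 2, 17, were chosen after seeing the data. The cause of these shifts was not tested.

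With each sample left out in turn, the members called higher numbered 4 to 6, 3 to 4 and 1 to 2 (2 without shRgs16 replicate 4) and those lower 6 to 9, 5 to 7 and 7 to 9 in the 3 comparisons in the same order. All genes called numbered 8758 to 9301, 6487 to 7397 and 5779 to 6869.

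With the replicate number as a block, 74 of the 81 member values kept their call, 6 passed anew and 1 was lost, Srebf2 in shG0s2 vs shLacZ (adjusted p = 0.0793). Same-numbered samples correlated at -0.07 to 0.14 in their deviations from the group means, and samples of different number at -0.13 to 0.11. In the 3 comparisons 2, 4 and 2 of 8 samples correlated best with their own number. Correlations this weak cannot tell whether same-numbered samples share more than a number. With TMM, 2, 7 and 3 of 27 members lay above the mean in replicate 2 of shG0s2, shRgs16 and shLacZ. In replicate 4 these counts were 23, 22 and 20, and in replicate 3 they were 24, 6 and 4. In simulated counts at this depth and sample number, 75 to 79 of 100 genes changed 1.5-fold and 94 to 97 of 100 changed 2-fold were recovered in the 3 comparisons. Only 200 genes were changed, as many up as down, each with a mean count of at least 100. No shift of the bulk of the genes was simulated, so these rates do not bear on the choice of scale.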
